A study of Mus musculus with 2 samples.

Results

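The enzymes that write, copy and erase 5-methylcytosine were followed in the germ cells and supporting cells of the mouse testis at postnatal day (PD) 7. The 8 genes were taken by name from the 32285 genes of the count tables: *Dnmt1* and *Uhrf1*, *Dnmt3a*, *Dnmt3b* and *Dnmt3l*, and *Tet1*, *Tet2* and *Tet3*. All 8 had at least 1 unique molecular identifier (UMI, the tag that marks 1 captured RNA molecule) in the retained cells of both libraries. DNMT1 copies methylation onto the new strand after replication, and UHRF1 brings it to hemimethylated DNA. DNMT3A and DNMT3B methylate unmethylated sites, DNMT3L is their catalytically inactive partner in germ cells, and TET1, TET2 and TET3 oxidise 5-methylcytosine and so start its removal. In the male germline the methylation pattern is laid down before birth by the de novo enzymes, and it is then carried through the divisions of spermatogonia by the maintenance pair.

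The data were 1 droplet single-cell RNA library (10x Genomics) from control testes and 1 from *Brca1* vKO testes, both at PD7. In *Brca1* vKO mice (*Brca1* f/- *Vasa-Cre*) the floxed allele is deleted in germ cells by Cre under the germ cell *Vasa* promoter, while somatic cells still hold 1 intact floxed allele beside the deleted one. Each library came from 1 mouse, so no biological replicate exists, and the controls were littermates whose alleles are not given in the sources used here. More *Brca1* vKO cells than control cells were loaded, to offset the smaller testes.

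After filtering, 5077 of 5812 control barcodes and 8712 of 9456 *Brca1* vKO barcodes were kept, and the tables held 120568700 and 165062097 UMIs. Germ cells were cells with *Ddx4* and *Dazl*, both germ cell RNA-binding protein genes, at 4 or more UMIs per 10000 UMIs together. They were 876 control cells (17.3%) and 237 *Brca1* vKO cells (2.72%). The share of *Kit* and *Stra8* among the UMIs of *Gfra1*, *Ret*, *Kit* and *Stra8* split them. *Gfra1* and *Ret* encode the GDNF receptor of undifferentiated spermatogonia, and *Kit* and *Stra8* mark the answer to retinoic acid. Cells at a share of 0.2 or below are called undifferentiated (246 control and 139 *Brca1* vKO cells), cells between 0.2 and 0.8 intermediate (93 and 42), and cells at 0.8 or above differentiating (235 and 9). Germ cells with fewer than 3 UMIs of the 4 genes are called low-marker (302 and 47 cells). Most of these were shallow, with medians of 3992 and 4334 UMIs against 35730 to 46077 in the other germ classes. Of them 70 and 12 held 10000 or more UMIs. Sertoli-like (2333 and 4456), stromal-like (780 and 1767) and myoid-like (583 and 1517) cells were gated on their own markers. No member was used by any gate. Cells that passed the gates of unlike types, 7.58% and 6.51% of the kept cells, were left out as possible doublets, and no doublet caller was run. The libraries shared 21 barcodes.

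The gates fix where their own markers are high, and the levels are given to show what stood in the other classes. The 8 Sertoli genes summed to 8352 and 8384 UMIs per 1000000 (counts per 1000000 UMIs, CPM) in Sertoli-like cells and to between 77.2 and 246 CPM in germ cells, where they were higher in each *Brca1* vKO class. The germ pair summed to between 1449.7 and 1777 CPM in germ cells. In the somatic classes it reached 8.71 to 11.7 CPM in the control library and 3.07 to 3.65 CPM in the *Brca1* vKO library. How much of this was free germ cell RNA was not tested. Genes that no gate used checked the split. The 8 stem cell genes *Etv5*, *Id4*, *Lhx1*, *Eomes*, *T*, *Nanos2*, *Pax7* and *Bcl6b* summed to 223 CPM in control undifferentiated and 15.8 CPM in differentiating cells, and to 488 and 49.3 CPM in the *Brca1* vKO library. The progenitor genes *Sox3*, *Neurog3*, *Nanos3*, *Upp1* and *Rarg* summed to 138, 164 and 113 CPM in control undifferentiated, intermediate and differentiating cells. They reached 248 CPM in control low-marker cells, which lie outside the switch described below. The *Brca1* vKO sums in the same order were 55.5, 53.8, 95.5 and 73.1 CPM. A list of 7 differentiation genes (*Sohlh2*, *Dmrtb1*, *Lmo1*, *Prdm9*, *Meiob*, *Rec8*, *Ccnd2*) did not follow the labels as a sum, at 325 and 311 CPM in the control and 676 and 357 CPM in the *Brca1* vKO library. *Ccnd2*, the cyclin D2 gene, made up most of the undifferentiated sums, with 269 and 616 CPM, and was lower in differentiating cells (104 and 188 CPM). *Lmo1* went from 11 to 84.9 CPM in the control and from 5.59 to 67.7 CPM in the *Brca1* vKO library, and *Dmrtb1*, a regulator of spermatogonial differentiation, from 3.38 to 38.2 and from 0.931 to 18.5 CPM. *Sohlh2*, *Rec8* and *Prdm9* were higher in control differentiating cells, while their *Brca1* vKO UMIs there (22, 4 and 1) gave intervals that overlap the undifferentiated ones. *Meiob* was lower in control differentiating cells, with 46 UMIs before and 10 after, while its 11 and 0 UMIs in the *Brca1* vKO library gave overlapping intervals. *Brca1* itself stood at 73.1 CPM in control and 42.8 CPM in *Brca1* vKO undifferentiated cells, a ratio of 0.585 (95% interval 0.504 to 0.678). It also stood lower in stromal-like cells (ratio 0.532), in myoid-like cells (0.527) and in Sertoli-like cells (0.860, 0.807 to 0.915), so the difference was not limited to germ cells. In the 9 differentiating *Brca1* vKO cells the ratio was 0.913 (0.588 to 1.36), an interval that includes equal levels. Cre removes only part of the exons of *Brca1*. Counts per gene do not part these from the kept exons, so the ratios do not measure the deletion.

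With 1 library per genotype no test between genotypes or classes was made. Levels are CPM of summed UMIs with exact Poisson 95% intervals, and ratios have exact conditional 95% intervals. Both reflect counting error alone, not the spread between mice. A member is called past 2-fold when the ratio is at least 2 or at most 0.5, and only where the sums being compared hold 50 or more UMIs together. CPM is a share of a class's RNA, not an amount per cell, and levels of different genes are not compared because gene length was not corrected.

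Of the 8 promoter windows chosen, 1 per member, those of the maintenance pair held motifs of E2F, the transcription factor family of S phase genes. They were picked for printing after both genes had been seen to follow the cell cycle markers in the counts. Whether E2F binds there, or has a part in that pattern, was not tested. The motifs searched were TTTCGCGC, TTTGGCGC and TTTCCCGC, on both strands, from 250 bases before to 50 bases after the start site (RefSeq, GRCm38.p6). Capitals mark the matches. The *Dnmt1* window is on the minus strand at chr9:20952574-20952873 and the *Uhrf1* window on the plus strand at chr17:56304063-56304362.
Dnmt1: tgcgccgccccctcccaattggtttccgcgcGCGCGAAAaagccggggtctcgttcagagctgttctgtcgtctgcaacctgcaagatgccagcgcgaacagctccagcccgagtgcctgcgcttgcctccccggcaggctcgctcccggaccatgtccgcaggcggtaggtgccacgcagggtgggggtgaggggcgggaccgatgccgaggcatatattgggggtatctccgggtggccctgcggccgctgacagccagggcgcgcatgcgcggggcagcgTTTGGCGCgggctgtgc
Uhrf1: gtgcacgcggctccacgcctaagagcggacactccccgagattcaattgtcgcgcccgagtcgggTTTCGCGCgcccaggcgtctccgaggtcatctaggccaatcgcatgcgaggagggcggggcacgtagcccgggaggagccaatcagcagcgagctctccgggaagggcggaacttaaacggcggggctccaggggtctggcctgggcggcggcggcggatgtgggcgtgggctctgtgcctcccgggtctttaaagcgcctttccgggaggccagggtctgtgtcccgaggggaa

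Positions are counted from the RefSeq start of the window shown. In *Dnmt1* the reverse complement of TTTCGCGC began 219 bases before that start, and TTTGGCGC 34 bases into the transcript that begins there. In *Uhrf1* TTTCGCGC began 185 bases before the start. Other RefSeq starts of both genes lie upstream of these windows. For transcripts from those starts the matches fall within the gene, not before it. At least 1 of the 3 motifs was present in 1.84% of the 32851 promoter windows of this length. The motifs hold CpGs themselves, and only 8.56% of promoters had as many CpGs as the windows of *Dnmt1* and *Uhrf1*. The share with a motif among such promoters was not computed. The windows of the other 6 members held none of them, which says only that these letters are absent there. The letters CNCCTCAG, a motif of STRA8, were in none of the 8 windows and in 7.94% of all promoters. The windows of *Dnmt1* and *Uhrf1* each held 33 CpG sites, that of *Tet2* 57 and that of *Dnmt3l* 3. As many CpGs as in *Tet2* were found in 0.152% of promoters, and as many as in *Dnmt3l* in 76.7%. Where RefSeq gave several starts, the window shown is the one nearest to the most GENCODE starts, and the counts do not tell which start was used. Other *Dnmt1* windows, upstream at chr9:20952930-20953229 and chr9:20959839-20960138, and the other *Uhrf1* window, at chr17:56303087-56303386, held none of the motifs searched, and 1 other *Dnmt3l* window held 2 matches to CNCCTCAG.

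The first comparison was between cell types. In undifferentiated germ cells *Dnmt1*, *Uhrf1* and *Dnmt3b* stood above all 3 somatic classes, and *Tet1* and *Tet2* far below them, in both libraries. Of the 7 members with enough UMIs, 3 were past 2-fold higher in control undifferentiated than in Sertoli-like cells and 4 past 2-fold lower. Of all 14920 genes compared, 28.8% were past 2-fold higher and 25.4% lower, so germ cells and Sertoli-like cells differed broadly. The median log2 ratio of all genes was 0.17, and it was 0.40 against stromal-like and 0.53 against myoid-like cells. The *Brca1* vKO library gave the same counts against Sertoli-like cells, 3 higher and 4 lower, with 25.6% and 26.3% of all genes. Against control stromal-like cells 3 members were higher and 2 lower (35.3% and 24.2% of genes), and against myoid-like cells again 3 and 2 (38.4% and 22.0%).

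**Figure D1:**
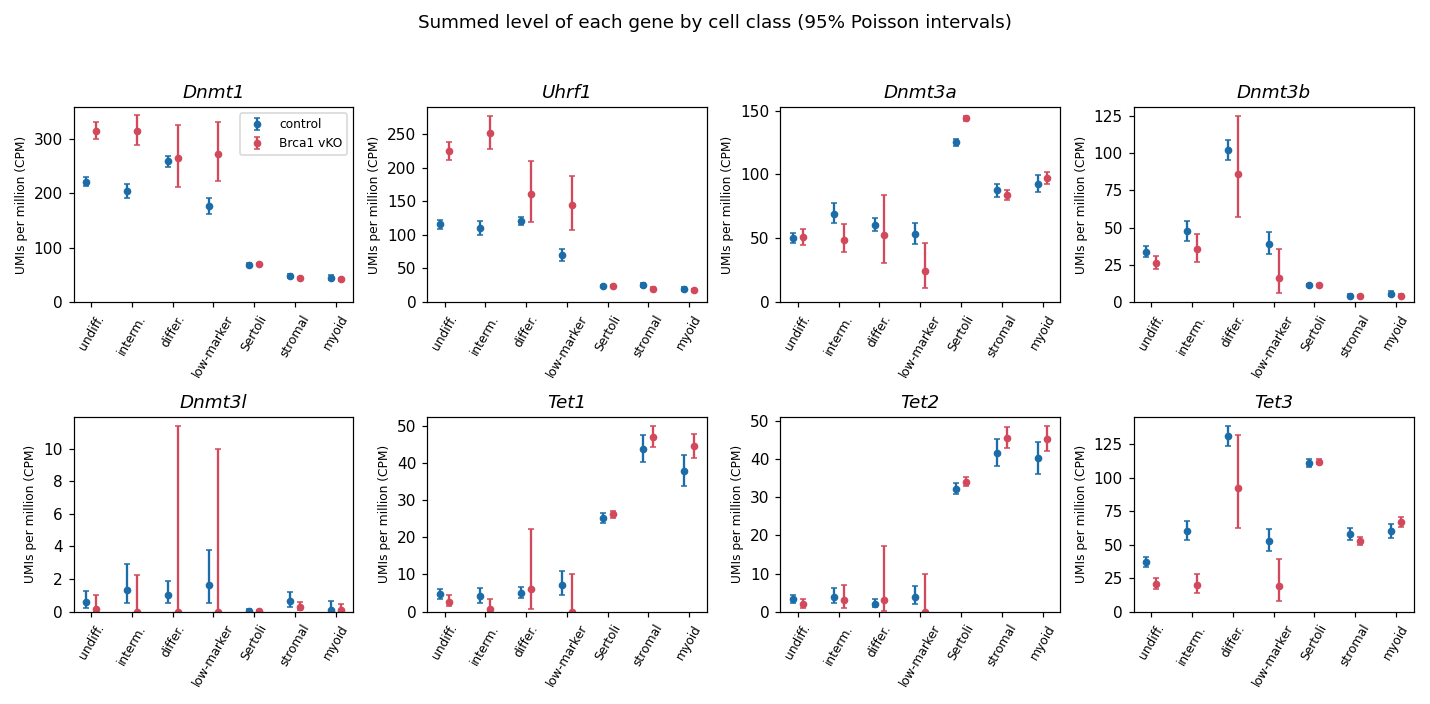
Summed level of each gene in UMIs per 1000000 (CPM, linear axes from 0) in 7 cell classes of the control (blue) and *Brca1* vKO (red) libraries. Points are levels and bars 95% Poisson intervals. *Dnmt1*, *Uhrf1* and *Dnmt3b* are highest in germ cells, *Tet1* and *Tet2* in stromal-like and myoid-like cells, and *Tet3* is high in differentiating germ cells and Sertoli-like cells.

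*Dnmt1* (ENSMUSG00000004099, minus strand, chr9:20907209-20959888 in GRCm38) stood at 222 CPM in control undifferentiated cells and at 68.7, 48.3 and 44.6 CPM in Sertoli-like, stromal-like and myoid-like cells. In the *Brca1* vKO library these levels were 316, 69.2, 44.0 and 41.6 CPM. Over Sertoli-like cells, the undifferentiated level was 3.23-fold higher (3.07 to 3.40) in the control and 4.57-fold higher (4.33 to 4.81) in the *Brca1* vKO library. All 4 germ classes lay above the somatic classes in both libraries, without overlap of intervals. The stromal-like and myoid-like intervals overlapped each other.

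*Uhrf1* (ENSMUSG00000001228, plus strand, chr17:56303321-56323486) stood at 116 CPM in control undifferentiated cells and at 23.9, 24.8 and 19.6 CPM in the somatic classes. In the *Brca1* vKO library it stood at 225 CPM in undifferentiated cells and at 23.6, 19.6 and 17.4 CPM in the same somatic classes. The ratio to Sertoli-like cells was 4.84 (4.48 to 5.23) in the control and 9.51 (8.87 to 10.2) in the *Brca1* vKO library. With each gene's lowest class level subtracted, which leaves little of the Sertoli-like level, the ratios became 22.4 and 33.3 for *Uhrf1*, and 7.36 and 9.96 for *Dnmt1*. As for *Dnmt1*, the germ classes lay above the somatic ones in both libraries.

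*Dnmt3a* (ENSMUSG00000020661, plus strand, chr12:3806007-3914443) had the opposite order. It was highest in Sertoli-like cells, at 125 CPM in the control and 144 CPM in the *Brca1* vKO library. Stromal-like cells had 87.4 and 83.9 CPM, myoid-like cells 92.6 and 97.3 CPM, and undifferentiated germ cells 49.9 and 50.6 CPM. The undifferentiated level was 0.398 of the Sertoli-like level (0.365 to 0.434) in the control and 0.352 (0.311 to 0.396) in the *Brca1* vKO library.

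*Dnmt3b* (ENSMUSG00000027478, plus strand, chr2:153649450-153687730) was instead highest in germ cells. It stood at 33.8 CPM in control undifferentiated cells, against 11.4 CPM in Sertoli-like, 4.28 CPM in stromal-like and 5.52 CPM in myoid-like cells. In the *Brca1* vKO library these levels were 26.3, 11.3, 3.74 and 4.03 CPM. The ratio of undifferentiated to Sertoli-like cells was 2.96 (2.60 to 3.37) in the control and 2.32 (1.94 to 2.77) in the *Brca1* vKO library, and with median-of-ratios scaling the latter fell to 1.84. *Dnmt3c*, the rodent copy of *Dnmt3b* that lies next to it at chr2:153696652-153729907, shares sequence with it, and how the counting split reads between them was not tested. *Dnmt3c* had 232 UMIs in control and 418 in *Brca1* vKO Sertoli-like cells (4.26 and 4.13 CPM). It had at most 1 UMI in any germ class of either library. The antisense gene *Dnmt3bos* had 11 UMIs in control undifferentiated and 16 in control differentiating cells, against 389 and 986 of *Dnmt3b*.

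*Dnmt3l* (ENSMUSG00000000730, plus strand, chr10:78041947-78063622) was close to undetected. It had 7, 6, 10 and 5 UMIs in control undifferentiated, intermediate, differentiating and low-marker cells, the highest level being 1.62 CPM (0.525 to 3.78). In the *Brca1* vKO germ cells it had 1 UMI in all, in an undifferentiated cell. Sertoli-like, stromal-like and myoid-like cells held 3, 8 and 1 UMIs in the control, and 2, 6 and 2 UMIs among *Brca1* vKO cells. No ratio of *Dnmt3l* is given, since no comparison reached 50 UMIs.

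The erasers *Tet1* (ENSMUSG00000047146, minus strand, chr10:62804570-62908996) and *Tet2* (ENSMUSG00000040943, minus strand, chr3:133463679-133545139) were higher in somatic than in germ cells at this age. *Tet1* stood at 4.60 CPM in control undifferentiated cells, against 25.1 CPM in Sertoli-like, 43.6 CPM in stromal-like and 37.7 CPM in myoid-like cells. *Tet2* stood at 3.21 CPM in those germ cells, against 32.3, 41.7 and 40.3 CPM. In the *Brca1* vKO library, undifferentiated cells had 2.61 CPM of *Tet1* (14 UMIs) and 1.86 CPM of *Tet2* (10 UMIs), and somatic levels lay between 26.1 and 47.0 CPM. The undifferentiated level was 0.184 of the Sertoli-like level for *Tet1* (0.137 to 0.242) and 0.0995 for *Tet2* (0.0698 to 0.138) in the control. For both genes and in both libraries, Sertoli-like cells lay below stromal-like and myoid-like cells, whose intervals overlapped each other. With each cell thinned to 10000 UMIs, 5.28% of control undifferentiated cells had a *Tet1* UMI and 2.44% a *Tet2* UMI (14.2% and 11% without thinning), against 33.2% and 33.8% of stromal-like cells (44.1% and 46.2%). Sertoli markers in the same germ cells summed to 84.8 CPM in the control and 193 CPM in the *Brca1* vKO library. The part of free somatic RNA in the few *Tet1* and *Tet2* UMIs of germ cells was not tested.

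*Tet3* (ENSMUSG00000034832, minus strand, chr6:83362373-83459084) depended on the germ cell class. It stood at 111 and 112 CPM in Sertoli-like cells of the control and *Brca1* vKO libraries. In undifferentiated cells it stood at 37.0 and 20.5 CPM, ratios of 0.334 (0.302 to 0.368) and 0.183 (0.150 to 0.220). In control differentiating cells it stood at 131 CPM, 1.19-fold the Sertoli-like level (1.11 to 1.26) and the highest of its 7 classes. Of the 7 members compared between control differentiating and Sertoli-like cells, 3 were past 2-fold higher and 3 lower, beside 29.1% and 25.7% of genes, with *Dnmt3b* at a ratio of 8.95 (8.09 to 9.91).

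The second comparison followed the switch from undifferentiated to differentiating spermatogonia. In the control library *Dnmt3b* and *Tet3* were about 3-fold higher after the switch, while the other 5 members with enough UMIs stayed within 2-fold. The background was 7.32% of 12932 genes past 2-fold higher and 9.14% lower, with a median log2 ratio of 0.06. Of the 7 members compared, 2 were past 2-fold higher and 0 lower. A de novo writer and an eraser were thus both higher after the switch, and the maintenance pair stayed within 1.16-fold between these 2 classes. Control low-marker cells had *Uhrf1* at 0.599 of the undifferentiated level (0.516 to 0.693), *Dnmt1* at 0.795 (0.723 to 0.872) and *Tet3* at 1.43 (1.18 to 1.71). The intervals of *Dnmt3a*, *Dnmt3b* and *Tet1* included equal levels there, and the median log2 ratio of all genes was -0.26. Between undifferentiated and intermediate cells 0 of 7 members passed 2-fold, beside 0.677% of genes higher and 1.49% lower, though *Dnmt3a* (1.38), *Dnmt3b* (1.41) and *Tet3* (1.62) already had intervals above 1, and *Dnmt1* (0.919, 0.851 to 0.992) one below it.

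*Dnmt3b* stood at 33.8 CPM in control undifferentiated cells (389 UMIs), 47.5 CPM in intermediate cells (211 UMIs) and 102 CPM in differentiating cells (986 UMIs). The differentiating level was 3.02-fold the undifferentiated one (2.68 to 3.41), and the 3 intervals did not overlap. In cells with 10000 or more UMIs, the median over cells was 26.9 CPM before and 92.1 CPM after the switch. At 10000 UMIs per cell, 26.8% of undifferentiated (21.4% to 32.8%) and 57.3% of differentiating cells (50% to 64.4%) had a *Dnmt3b* UMI, and without thinning 70.7% and 81.3%. In Sertoli-like cells the thinned share was 9.40%.

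*Tet3* stood at 37.0 CPM in control undifferentiated cells (426 UMIs), 60.1 CPM in intermediate cells (267 UMIs) and 131 CPM in differentiating cells (1270 UMIs). The ratio of differentiating to undifferentiated was 3.55 (3.18 to 3.97). The median over cells went from 20.4 to 108 CPM. The thinned share of cells with a *Tet3* UMI went from 28.5% (22.9% to 34.5%) to 67.2% (60.1% to 73.8%), and the unthinned share from 56.5% to 77.0%. Of the differentiating cells, 43 had fewer than 10000 UMIs and were left out of the thinned shares.

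The other members moved less. *Dnmt1* went from 222 to 259 CPM, a ratio of 1.16 (1.10 to 1.23). *Uhrf1* stood at 116 and 120.4 CPM, a ratio of 1.04 (0.962 to 1.13). *Dnmt3a* stood at 49.9 and 60.4 CPM, a ratio of 1.21 (1.08 to 1.36), with its highest germ cell level, 69.1 CPM, in intermediate cells. *Tet1* had 53 and 48 UMIs, a ratio of 1.08 (0.715 to 1.63). *Tet2* had 37 and 20 UMIs, a ratio of 0.644 (0.354 to 1.14), and at this depth no difference was detectable for either gene. Haemoglobin and *Alas2* transcripts of red blood cells also climbed across these control classes, from 117 to 757 and 1545 CPM, while in the *Brca1* vKO library they stood at 42.4 and 43.1 CPM before and after the switch. Stromal genes that no gate used summed to 48.0, 56.2 and 93.3 CPM in the control classes, and the stromal genes of the gate to 11.6, 11.7 and 10.4 CPM. Their part in the ratios was not tested. Without haemoglobin, ribosomal and mitochondrial genes in the total, the control ratios were 2.98 for *Dnmt3b* and 3.51 for *Tet3*.

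**Figure D2:**
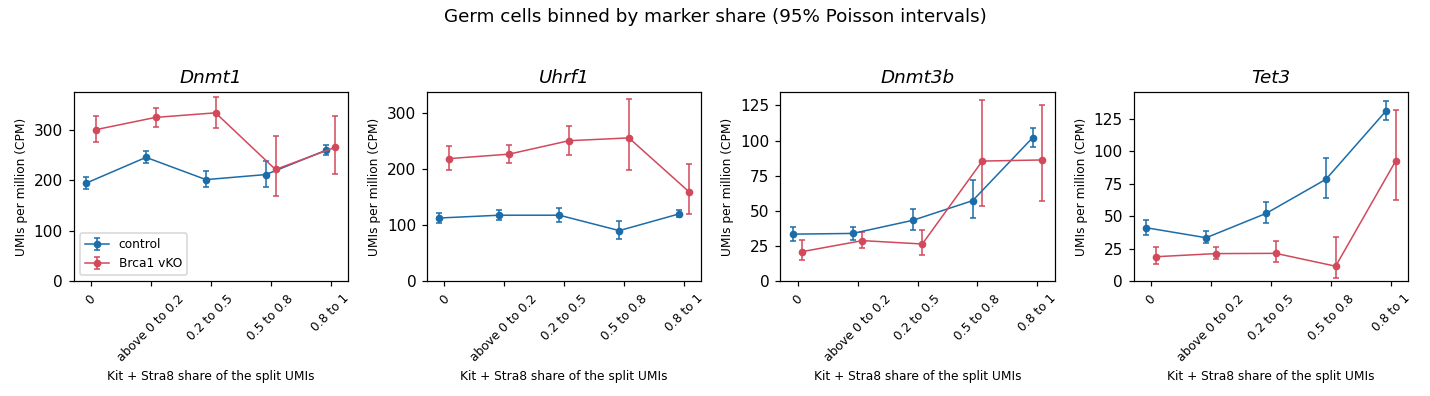
Level of 4 genes (CPM, linear axes from 0) in germ cells binned by the share of *Kit* and *Stra8* among the UMIs of the 4 genes that split them, for the control (blue) and *Brca1* vKO (red) libraries. Points are summed levels and bars 95% Poisson intervals. *Dnmt3b* and *Tet3* climb from the second control bin on, and the last 2 *Brca1* vKO bins hold 6 and 9 cells.

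Finer bins along the *Kit* and *Stra8* share gave the levels between these ends. The 5 control bins held 121 cells at a share of 0, 125 up to 0.2, 63 from 0.2 to 0.5, 30 from 0.5 to 0.8 and 235 above. *Tet3* stood at 41.2, 33.5, 52.2, 78.5 and 131 CPM in these bins. *Dnmt3b* stood at 33.5, 34.0, 43.3, 57.3 and 102 CPM. Both genes were thus level or lower in the second bin and higher in each later one. *Uhrf1*, at 113, 118, 118, 90.5 and 120.4 CPM, and *Dnmt1*, at 194, 245, 201, 211 and 259 CPM, had no such climb. The S and G2/M genes, 20 markers of dividing cells, summed to 2899, 3409, 3081, 3113 and 3468 CPM in the same bins, without a steady climb.

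The other genes of DNA methylation and demethylation were read from lists by step. Of 8 maintenance partners 0 were past 2-fold in either direction, with a median log2 ratio of 0.22. They ran from *Hells*, a chromatin remodeller needed for methylation, at a ratio of 1.49, down to *Uhrf2*, the homolog of *Uhrf1*, at 0.761. Among 11 genes of base excision and related steps after TET oxidation, 3 were higher and 1 lower (median 0.03). The 3 were the stress-responsive *Gadd45* genes: *Gadd45b* from 13.2 to 46.3 CPM (ratio 3.51), *Gadd45g* from 6.42 to 16.3 CPM (2.54) and *Gadd45a* from 10.4 to 21.5 CPM (2.07). In control Sertoli-like cells they stood higher, at 210, 41.5 and 24.2 CPM in the same order. *Gadd45b* also stood at 222 and 416 CPM in control stromal-like and myoid-like cells. *Gadd45a* stood at 6.06 and 17.7 CPM there, below its level in differentiating cells. The part of free somatic RNA in these ratios was not tested. *Ogt*, the O-GlcNAc transferase that binds TET proteins, went from 90.5 to 39.9 CPM (0.441). *Tdg*, the glycosylase that removes oxidised cytosines, stood at 37.4 and 50.6 CPM (1.35).

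Of 6 readers of methylated DNA 0 were past 2-fold (median -0.10). Of 8 genes of piRNA-directed methylation 1 was lower, *Spocd1*, from 72 to 15 UMIs (ratio 0.248, 0.132 to 0.437), and *Morc1*, from 155 to 77.8 CPM, lay just inside the limit at 0.501. The median of that list was -0.09. Of 10 chromatin guides 1 was higher, *Dppa3*, which shields DNA from TET and UHRF1, with 11 and 52 UMIs (5.63, 2.90 to 12), and the median was 0.16. Of 7 genes of methyl donor supply 1 was lower, the methionine synthase *Mtr*, from 186 to 77.9 CPM (0.418), with a median of -0.08. Of the other DNMT-family genes, *Dnmt3c* had too few UMIs, and *Trdmt1*, which encodes an RNA methyltransferase, had 116 and 88 UMIs (0.904, 0.677 to 1.20). The medians of the lists with more than 1 gene compared thus lay between -0.10 and 0.22, beside 0.06 for all genes.

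The *Brca1* vKO library held 9 differentiating germ cells. Of 5 members with enough UMIs, again 2 were past 2-fold higher and 0 lower, beside 5.02% and 10.5% of 9415 genes. *Dnmt3b* stood at 26.3 CPM in undifferentiated and 86.2 CPM in differentiating cells (28 UMIs), a ratio of 3.28 (2.11 to 4.95). *Tet3* stood at 20.5 and 92.4 CPM (30 UMIs), a ratio of 4.51 (2.91 to 6.81). Both calls ended with at most 5% mitochondrial UMIs and with thinning to 2000 or 10000 UMIs, which left neither gene with 50 UMIs, and *Dnmt3b* then ran from 0 to 4.43. *Uhrf1* stood at 225 and 160.1 CPM, a ratio of 0.713 (0.530 to 0.941), and *Dnmt1* at 316 and 265 CPM, a ratio of 0.839 (0.667 to 1.04). *Dnmt3a* had 17 UMIs after the switch (1.03, 0.593 to 1.69). *Tet1* had 14 and 2 UMIs, *Tet2* 10 and 1, and *Dnmt3l* 1 and 0, too few to compare. Stromal genes that no gate used (*Dlk1*, *Igf1*, *Col1a1*, *Col3a1*) went from 64.8 to 172 CPM and the myoid list from 62.7 to 95.5 CPM, with *Cnn1* and *Actg2* at 0. The Sertoli list stood at 193 and 206 CPM, with *Amh* and *Gata1* at 0 after the switch. The part of these cells' RNA in the ratios was not tested. In stromal-like and myoid-like cells of this library *Dnmt3b* stood at 3.74 and 4.03 CPM. *Tet3* stood there at 52.7 and 66.6 CPM, above its undifferentiated level. With each library's switch read on its own, no test of a difference between the libraries was possible.

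One by one, the 9 cells held between 3153 and 54518 UMIs. *Dnmt3b* had 0 UMIs in the shallowest cell and 1 to 5 in each of the other 8. *Tet3* had 0 in 2 cells, 1 or 2 in 4 cells, and 4, 9 and 11 in the remaining 3. The cells with 9 and 11 *Tet3* UMIs together gave 20 of the 30 UMIs. *Gfra1* and *Ret* were at 0 in these cells and in 1 other, which held 1 *Tet3* UMI. *Uhrf1* had at least 1 UMI in all 9 cells. The *Tet3* level of this class therefore rested on few cells, while *Dnmt3b* was spread over most of them.

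Before the last bins the *Brca1* vKO cells had no climb of *Tet3*. Between undifferentiated and intermediate cells 0 of 5 members passed 2-fold there, beside 0.394% and 1.33% of genes. At a share of 0, up to 0.2, and from 0.2 to 0.5 (51, 88 and 36 cells), *Tet3* stood at 18.9, 21.3 and 21.5 CPM and *Dnmt3b* at 21.1, 28.9 and 26.5 CPM. From 0.5 to 0.8, in 6 cells, *Tet3* had 3 UMIs (11.6 CPM) and *Dnmt3b* 22 UMIs (85.4 CPM). Of the 190 *Brca1* vKO cells that could be split, 66 lay at a share between 0.1 and 0.3, near the lower limit, against 72 of 574 control cells.

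**Figure D3:**
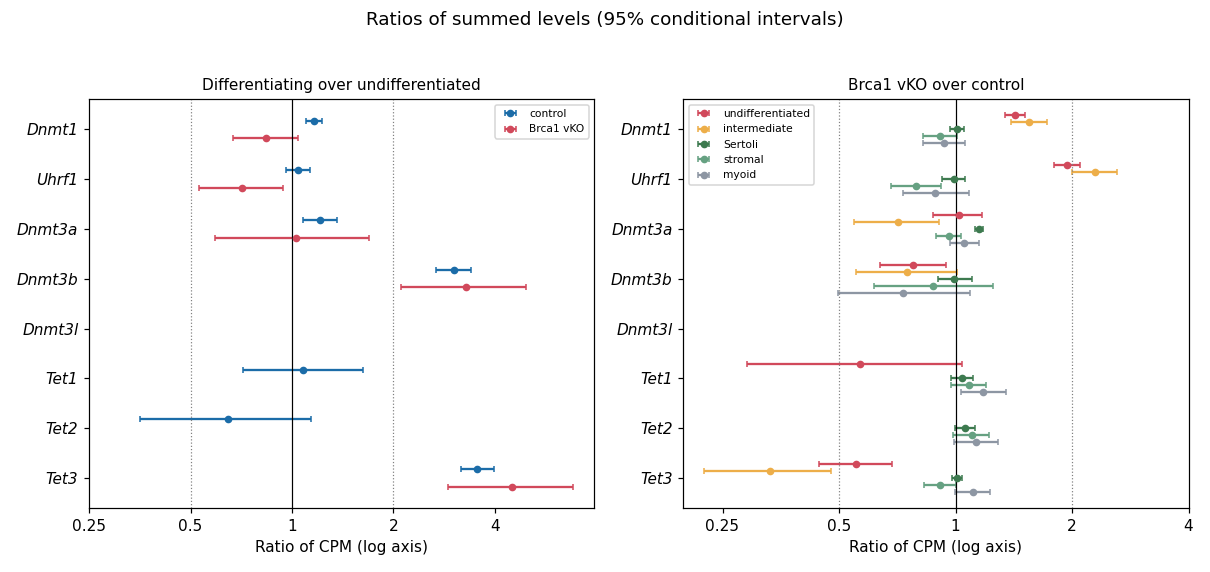
Ratios of summed levels (log axes, dotted lines at 2-fold, bars 95% conditional intervals, only pairs with 50 or more UMIs). Left, differentiating over undifferentiated cells, with *Dnmt3b* and *Tet3* past 2-fold in both libraries. Right, *Brca1* vKO over control by class, with *Uhrf1* and *Dnmt1* above 1 and *Tet3* below 1 in undifferentiated and intermediate germ cells, and somatic ratios near 1.

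The third comparison set the *Brca1* vKO library against the control within each class. In undifferentiated cells the maintenance pair was higher in the *Brca1* vKO library and *Tet3* lower, but 0 of the 6 members with enough UMIs passed 2-fold in either direction. The background was 3.59% of 12239 genes past 2-fold higher and 4.64% lower.

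*Uhrf1* stood at 116 CPM (109 to 122) in control and 225 CPM (212 to 238) in *Brca1* vKO undifferentiated cells, a ratio of 1.94 (1.80 to 2.10). In cells with 10000 or more UMIs the median over cells was 94.7 and 202 CPM. At 10000 UMIs per cell, 63.4% of control (57.1% to 69.4%) and 81.2% of *Brca1* vKO cells (73.6% to 87.3%) had a *Uhrf1* UMI, and without thinning 95.1% and 97.1%. *Dnmt1* stood at 222 CPM (213 to 231) and 316 CPM (301 to 331), a ratio of 1.42 (1.34 to 1.51), with medians over cells of 198 and 285 CPM. For both genes the intervals of the libraries lay apart.

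*Tet3* stood at 37.0 CPM (33.5 to 40.6) in control and 20.5 CPM (16.8 to 24.7) in *Brca1* vKO undifferentiated cells, a ratio of 0.554 (0.445 to 0.685). The thinned share of cells with a *Tet3* UMI was 28.5% and 15.2% (9.67% to 22.3%), and the unthinned share 56.5% and 43.9%. *Dnmt3b* stood at 33.8 and 26.3 CPM (0.778, 0.637 to 0.945), and *Dnmt3a* at 49.9 and 50.6 CPM (1.02, 0.875 to 1.17). *Tet1* had 53 and 14 UMIs (0.567, 0.290 to 1.04), an interval that includes equal levels. *Tet2* had 37 and 10 UMIs and *Dnmt3l* 7 and 1, too few to compare.

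Intermediate cells gave the same directions for *Uhrf1*, *Dnmt1* and *Tet3*. *Uhrf1* stood at 109.8 and 251 CPM (2.29, 2 to 2.62) and was past 2-fold, beside 3.32% of all genes past 2-fold higher in this class. *Tet3* stood at 60.1 and 19.9 CPM (0.332, 0.224 to 0.478) and was past 2-fold lower, beside 5.72% of genes. *Dnmt1* stood at 204 and 315 CPM (1.55, 1.39 to 1.72), and *Dnmt3a* at 69.1 and 48.9 CPM (0.709, 0.548 to 0.908). *Dnmt3b* stood at 47.5 and 35.7 CPM (0.751, 0.553 to 1.01). *Tet1* had 18 and 1 UMIs, *Tet2* 17 and 5, and *Dnmt3l* 6 and 0, too few to compare. The makeup of this class differed too. Stem cell genes summed to 125 and 391 CPM in the control and *Brca1* vKO cells, the progenitor genes *Sox3*, *Neurog3*, *Nanos3*, *Upp1* and *Rarg* to 164 and 53.8 CPM, and *Gfra1* and *Ret* to 277 and 412 CPM. Of the *Brca1* vKO cells 36 of 42 lay at a share of 0.2 to 0.5, against 63 of 93 control cells. Both calls ended when cells were thinned to 2000 or 10000 UMIs, where *Uhrf1* was at 1.25 and 1.99 and *Tet3*, at 0.738 and 0.171, fell short of 50 UMIs, and when *Ret* against *Stra8* made the split (1.98 and 0.521). With split limits of 0.4 and 0.6 *Tet3* again fell short (0.405). In low-marker cells *Uhrf1* was past 2-fold higher (2.07, 53 UMIs in the *Brca1* vKO library), and *Dnmt3a*, *Dnmt3b* and *Tet3*, with 9, 6 and 7 UMIs there, past 2-fold lower. *Dnmt1* was at 1.55 (1.24 to 1.92) there, and *Tet1*, *Tet2* and *Dnmt3l* had 22, 12 and 5 control UMIs and 0 in the *Brca1* vKO library. The backgrounds in that class were 2.61% and 11.7%. In differentiating cells 0 of 6 members passed 2-fold, beside 4.67% and 8.68% of genes. Their makeup differed too. *Gfra1* and *Ret* summed to 12.5 CPM in the control and 46.2 CPM in the *Brca1* vKO cells, and *Kit* and *Stra8* to 587 and 366 CPM. There the ratio was 1.33 for *Uhrf1* (0.987 to 1.76), 1.02 for *Dnmt1* (0.816 to 1.27), 0.846 for *Dnmt3b* (0.559 to 1.23) and 0.703 for *Tet3* (0.473 to 1.01). It was 0.867 for *Dnmt3a* (0.501 to 1.40) and 1.24 for *Tet1* (0.146 to 4.73), while *Tet2* had 20 and 1 UMIs and *Dnmt3l* 10 and 0. All 6 intervals include equal levels. Those of *Dnmt3b* and *Tet3* also include the ratios of undifferentiated cells, while those of *Uhrf1* and *Dnmt1* lie below them. These intervals rest on 9 *Brca1* vKO cells and on counting error alone. Over the other settings the ratio of *Uhrf1* ran from 0.881 to 1.81 and that of *Dnmt1* from 0.645 to 1.14. The 1.81 came from the split by *Ret* against *Stra8*, with 16 *Brca1* vKO cells.

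Somatic cells, which keep an intact *Brca1* allele, differed little. In Sertoli-like cells 0 of 7 members passed 2-fold, beside 1.25% of all genes higher and 1% lower, and the ratios ran from 0.988 for *Uhrf1* (0.923 to 1.06) to 1.15 for *Dnmt3a* (1.12 to 1.18). In stromal-like cells (backgrounds of 0.786% and 0.590%) 0 of 7 passed 2-fold, from 0.790 for *Uhrf1* (0.682 to 0.915) to 1.10 for *Tet2*. In myoid-like cells (1.21% and 0.406%) 0 of 7 passed 2-fold, from 0.731 for *Dnmt3b* (47 and 67 UMIs) to 1.18 for *Tet1*. The ratio of *Uhrf1* in undifferentiated cells was thus not found in any somatic class.

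The undifferentiated cells of the libraries differed in more than the members. The progenitor genes summed to 138 CPM in the control and 55.5 CPM in the *Brca1* vKO library. *Sox3*, a progenitor marker, stood at 27.2 and 7.45 CPM, and *Neurog3* had 41 and 0 UMIs. The 8 stem cell genes summed to 223 and 488 CPM. The sum of the 7 differentiation genes was 325 and 676 CPM, carried by *Ccnd2* (269 and 616 CPM). *Dmrtb1* and *Lmo1* stood lower in the *Brca1* vKO library and *Sohlh2* higher, while the intervals of *Prdm9*, *Meiob* and *Rec8* overlapped between the libraries. The 7 further germ cell genes (*Mael*, *Sycp1*, *Tdrd1*, *Rpl10l*, *Sohlh1*, *Zbtb16*, *Uchl1*) were lower, 2123 and 1341 CPM. The S and G2/M list summed to 3179 and 3506 CPM. Makeup of the class, cell cycle and genotype thus moved together, and their parts in the ratios cannot be told apart in 1 library each. Among cells with no *Kit* or *Stra8* UMI the ratio of *Tet3* was 0.459 and that of *Dnmt3b* 0.630.

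*Uhrf1* and *Dnmt1* are known as genes of cycling cells, so each class was also split by the summed level of 20 S and G2/M genes, none of them a member. In Sertoli-like cells *Uhrf1* stood at 49.4 CPM where the list was at 20 or more UMIs per 10000, and at 6.55 CPM where it was under 10, a ratio of 7.54 (6.45 to 8.83) in the control. *Dnmt1* stood at 104 and 41.7 CPM (2.48, 2.31 to 2.67). In control stromal-like cells the ratios were 16.1 for *Uhrf1* and 5.42 for *Dnmt1*, and in myoid-like cells 26.9 and 7.92. The ratios of the *Brca1* vKO library had the same direction, 5.85, 18.4 and 24.3 for *Uhrf1*. The other members with 50 or more UMIs lay between 0.699 and 1.21 in these control classes.

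In undifferentiated cells the *Uhrf1* ratio was smaller than in the somatic classes in both libraries, and that of *Dnmt1* in the control only. The control ratio of high to low was 1.83 for *Uhrf1* (1.48 to 2.27) and 1.90 for *Dnmt1* (1.63 to 2.23), and the *Brca1* vKO ratios were 1.58 and 2.80. Control cells under 10 UMIs of the list per 10000 still held *Uhrf1* at 73.2 CPM and *Dnmt1* at 137 CPM, above the level of Sertoli-like cells in any of the 4 bins (at most 50 and 106 CPM).

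**Figure D4:**
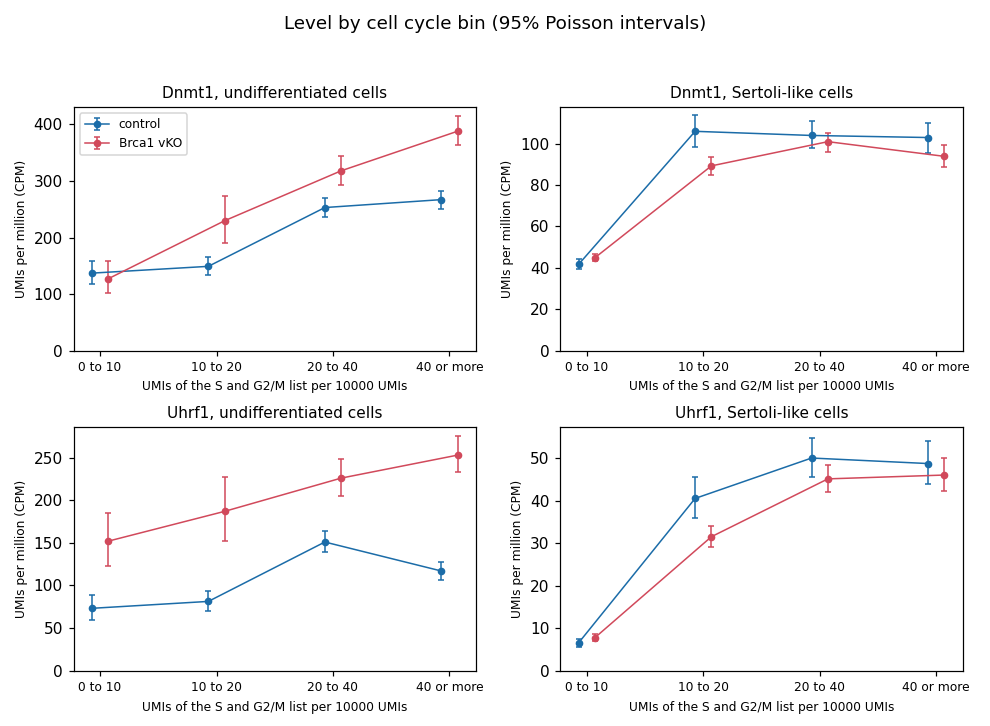
Level of *Dnmt1* and *Uhrf1* (CPM, linear axes from 0) in 4 bins of the S and G2/M list, in undifferentiated germ cells and Sertoli-like cells of the control (blue) and *Brca1* vKO (red) libraries. Bars are 95% Poisson intervals. *Uhrf1* of *Brca1* vKO undifferentiated cells lies above the control in each bin, and *Dnmt1* in all but the lowest.

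From the lowest to the highest bin, *Uhrf1* stood at 73.2, 81.3, 151 and 117 CPM in control and at 152, 187, 226 and 253 CPM in *Brca1* vKO undifferentiated cells. The ratios were 2.08 (1.55 to 2.78), 2.30 (1.79 to 2.94), 1.5 (1.32 to 1.70) and 2.17 (1.91 to 2.46). For *Dnmt1* they were 0.929 (0.706 to 1.21), 1.54 (1.25 to 1.89), 1.26 (1.13 to 1.39) and 1.46 (1.33 to 1.60), so that the lowest bin had no detectable difference. *Tet3* was at 0.816 (0.474 to 1.36) in the lowest bin and between 0.504 and 0.573 in the others. The bins held 17 to 53 *Brca1* vKO cells each, from 1 library per genotype, and they do not separate cell cycle from genotype.

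The pathway lists gave the surroundings of the genotype comparison. In undifferentiated cells 0 of 8 maintenance partners passed 2-fold (median log2 ratio 0.04, all genes -0.02). *Pcna*, the sliding clamp that binds DNMT1, was the highest of them at 152 and 199 CPM (1.31, 1.22 to 1.42), and *Cdca7l* the lowest at 0.926. Among 8 piRNA-directed methylation genes 1 was past 2-fold lower, *Spocd1* with 72 and 8 UMIs (0.238, 0.0992 to 0.495). All 8 ratios lay below 1, from that value to 0.917 for *Tex15*, and the median log2 ratio was -0.43. Of all genes 4.64% were past 2-fold lower in this class. The 7 further germ cell genes, *Mael* of this list among them, were also lower, at 2123 and 1341 CPM. Among 11 genes after TET oxidation 1 was lower, *Ogt* at 90.5 and 43.4 CPM (0.479). Among 7 methyl donor genes 1 was higher, the mitochondrial serine hydroxymethyltransferase *Shmt2*, at 40.8 and 86.2 CPM (2.11, 1.86 to 2.41). Chromatin guides and readers had 0 past 2-fold of 9 and 6, with medians of -0.18 and -0.08.

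Across the 12 levels of 6 classes in both libraries (low-marker cells left out), the genes with the pattern most like each member were found by the Pearson correlation of log2(CPM + 10). They were *Msh6*, which encodes a mismatch repair protein, for *Dnmt1* (r = 0.999), *Atp2c1* for *Uhrf1* (0.995), *Donson*, a replication gene, for *Dnmt3b* (0.987) and *Tmem126a* for *Tet3* (0.971). For *Dnmt3a*, *Tet1* and *Tet2* they were *4921524J17Rik* (0.980), *Armcx1* (0.993) and *Itgb8* (0.996). For *Dnmt3l* it was *Fam120c* (0.964), on 46 UMIs of *Dnmt3l* in all. The 12 points share 2 libraries, and 13191 genes were searched. Except for *Tet3* and *Dnmt3l*, the points fall into germ and somatic levels, and high values of r there describe that split.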

How the data were processed

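The authors aligned reads to mm10 with Cell Ranger 6.0.2, and the deposited tables hold raw counts of UMIs per gene and barcode, before the study's filter. Whether reads from introns were counted, and the library's 3′ or 5′ chemistry, are not given in the sources used here. A barcode entered with 750 or more genes and no more than 10% of its UMIs mitochondrial. Classes were set by marker sums per 10000 UMIs (germ 4, Sertoli 10, stromal 3 over *Dcn*, *Pdgfra*, *Tcf21* and *Lum*, myoid 10 or more, at least 2 UMIs), limits chosen on the markers after seeing the data. Cells past both the stromal and the myoid limit went to the larger sum, so doublets of these types were not removed. Counts were summed per library and class with Python 3.11.15, numpy 2.4.6, pandas 2.3.3 and scipy 1.17.1. The script was tested on simulated data: for the control switch, 95.7% of the intervals of 12884 genes held the true ratio, and 100% of 192 genes changed 3-fold were recovered. For undifferentiated *Brca1* vKO over control cells these shares were 95.9% of 12229 genes and 98.5% of 195. The shares check the calculation for counting error alone. They do not show how well the intervals hold where the cells of a class, or mice, differ from each other. Of the 8 members, each reported count past 2-fold covered only those with enough UMIs, from 5 to 7 of them. Not every member counted is named in each comparison. In the somatic classes between genotypes the ratios are given by their range. Genes of the pathway lists were named from the 2 highest and 2 lowest of each list, not all of them, with others chosen after their values were seen. The members and lists were chosen with earlier results of these data known. Settings of the filter, gates, depth and scaling were varied in 16 alternatives, and 2 more were chosen after seeing the data. Coordinates of genes are GENCODE annotations of GRCm38, the assembly of mm10, and promoters are RefSeq's.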

Additional observations from a re-analysis of the deposited data

Results flagged for a closer look

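The ratio of *Brca1* vKO to control lay on opposite sides of 1, beyond both counting intervals, in germ and somatic classes for a pair of genes. For *Uhrf1* it was 1.94 (1.80 to 2.10) in undifferentiated, 2.29 (2 to 2.62) in intermediate and 2.07 (1.5 to 2.81) in low-marker germ cells, but 0.790 (0.682 to 0.915) in stromal-like cells. The S and G2/M list in stromal-like cells stood at 1022 CPM in the control and 826 CPM in the *Brca1* vKO library, and its part in that ratio was not tested. For *Dnmt3a* it was 1.15 (1.12 to 1.18) in Sertoli-like cells, but 0.709 (0.548 to 0.908) in intermediate and 0.459 (0.206 to 0.893) in low-marker germ cells, the last on 9 *Brca1* vKO UMIs. With 1 library per genotype the differences between classes were not tested.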

How the results depend on the processing

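No paired analysis was possible because each genotype had 1 library and no replicate numbers. For the same reason no library could be left out. Over the 16 other settings, where they gave a value, the control ratios of *Dnmt3b* and *Tet3* at the switch ran from 2.17 to 3.32 and from 2.99 to 4.83. The *Brca1* vKO over control ratio in undifferentiated cells, over these and 2 settings chosen after seeing the data, ran from 1.64 to 2.24 for *Uhrf1*, from 1.32 to 1.55 for *Dnmt1* and from 0.459 to 0.686 for *Tet3*. None changed side, except that subtracting each gene's lowest class level set control *Tet3* and *Dnmt3a* to 0 by construction, so that both count as higher there and have no ratio. Weighting to the control library's cell cycle bins was one of the added settings. In intermediate cells *Uhrf1* ran from 1.25 to 2.87 and *Tet3* from 0.0428 to 0.738. At the control switch *Tet1* ran from 0.833 to 2.35 and *Tet2* from 0 to 1.28, on both sides of 1 and on few UMIs. At the *Brca1* vKO switch *Tet3* went down to 2.82 by *Ret* against *Stra8*. Its 48.1 after subtraction divides by a remainder near 0 (20.5 less 19.0 CPM, the latter from 7 UMIs) and measures the subtraction. Undifferentiated over Sertoli-like ratios ran from 4 to 22.4 (control) and 7.55 to 33.3 (*Brca1* vKO) for *Uhrf1*, and from 2.67 to 7.36 and 3.62 to 9.96 for *Dnmt1*. Of the counts of members past 2-fold, many of them 0, 296 stayed within 1.5 times the reported one and 28 moved. Of single ratios 819 stayed within their counting interval, 145 moved beyond it, and 1 ratio past 2-fold changed direction.

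The counts that moved are these. With at most 5% mitochondrial UMIs, which left 28 undifferentiated and 4 differentiating *Brca1* vKO cells and 3 members with enough UMIs at the *Brca1* vKO switch, 0 were higher and 1 (*Dnmt1*, 0.495) lower there, and *Dnmt3b* (4.43) and *Tet3* (3.87) fell short of 50 UMIs. The same setting gave 1 higher and 1 lower between genotypes in undifferentiated cells, and 2 lower in intermediate cells. Thinning to 2000 UMIs gave 1 higher at the control switch and 0 higher at the *Brca1* vKO switch. There *Dnmt3b* had a ratio of 0, with no UMI of it in the draw used for these sums (interval 0 to 7.82). The separate draw used for the shares of cells had a *Dnmt3b* UMI in 2 of the 9 cells, so that the ratio of 0 rests on 1 random draw. Thinning to 10000 UMIs gave 0 higher at the *Brca1* vKO switch, where 3 members had enough UMIs. In intermediate cells, both depths gave 0 higher and 0 lower between genotypes. Splitting by *Gfra1* against *Kit* gave 1 lower at the control switch, as did a fold of 1.5 and the subtraction of each member's lowest class level. Splitting by *Ret* against *Stra8* gave 0 higher and 0 lower in intermediate and 1 lower in differentiating cells between genotypes, and limits of 0.4 and 0.6 gave 0 lower in intermediate cells. Subtraction gave 4 higher (the pair set by construction, *Uhrf1* at 2.16 and *Tet1* at 4.74) between genotypes in undifferentiated and 2 higher in differentiating cells, 1 lower in stromal-like cells, and 1 higher and 1 lower in myoid-like cells. A fold of 1.5 gave 1 higher and 2 lower in undifferentiated and 2 higher in intermediate cells. Cells with no *Kit* or *Stra8* UMI gave 1 lower. Where fewer cells or UMIs entered, fewer members could be compared, and the other causes were not tested. Median-of-ratios scaling shifted log2 ratios of undifferentiated over Sertoli-like cells by -0.27 in the control and by -0.33 among *Brca1* vKO cells.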
